A study of Sus scrofa with 9 samples.

Results

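Endothelial cell markers were followed in the liver of diabetic and healthy pigs. The set held 34 genes chosen by name, all of them found among the 29837 gene symbols of the deposited count table: 6 markers of the liver sinusoid (STAB1, STAB2, LYVE1, FCGR2B, OIT3 and GPR182) and 28 general vascular markers. Livers came from 4 MIDY and 5 wild type (WT) females at an age of 2 years. MIDY is a diabetes of youth caused by a mutant INS gene, and the MIDY pigs carry a transgene for insulin with the C94Y change. The labels state that diabetic animals were given insulin of short and long action, so the transgene, the diabetes and the insulin treatment cannot be told apart. The sources used here do not give the promoter of the transgene or the number of founder lines. Each library was made from total liver RNA depleted of ribosomal RNA, and each carries its own animal number.

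Blood vessels of the liver are lined by endothelium of more than 1 kind. The sinusoids, its exchange capillaries, have a fenestrated endothelium without a tight basement membrane, and their cells clear waste from blood through scavenger receptors such as the stabilins. Arteries and veins carry a continuous endothelium with close junctions. Growth of both kinds runs through the VEGF receptors and the angiopoietin receptor TEK, and ETS and SOX transcription factors maintain the endothelial programme. Loss of sinusoidal features with gain of continuous-type features is called capillarization.

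Depth was 14115415 to 19533463 counts per library. The members together took 21404 to 28212 counts per library, and no member had fewer than 17 counts in any library, so all 34 passed the filter on low counts. Levels are given as CPM, the count as a share of the TMM-scaled library times 1e6 (TMM is edgeR's scaling factor), and are compared only between libraries of 1 gene, because transcript lengths were not used here. Hepatocyte markers, albumin among them, summed to 96188 to 152146 CPM. Counts from whole liver cannot separate fewer endothelial cells from less RNA per endothelial cell.

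Of the 34 markers, 1 fell in MIDY liver, EMCN, and 0 rose at an adjusted p below 0.05 (edgeR's quasi-likelihood test, Benjamini-Hochberg over the 14100 genes tested). DESeq2 and limma voom called 0 members higher as well. DESeq2 called 2 lower, but it also called more genes as a whole, 284 of the 14100 lower and 355 higher. Over all genes tested, edgeR called 0.355% lower and 0.816% higher (1.17% in either direction). Unadjusted p was below 0.05 for 6 members lower in MIDY (17.6%) and 1 higher (2.94%), where 1128 of the 14100 genes tested were lower and 1149 higher (8.15%), 16.1% in all. Fitted fold changes were below 0 for 25 of the 34 (73.5%), against 50.7% of all genes, and these 25 are not independent observations because the markers share cells and libraries. The median log2 fold change was -0.15 over the members and -0.00465 over all genes. For 20 of the 34 the 95% interval of the fold change stayed inside a 1.5-fold change either way.

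**Figure D1:**
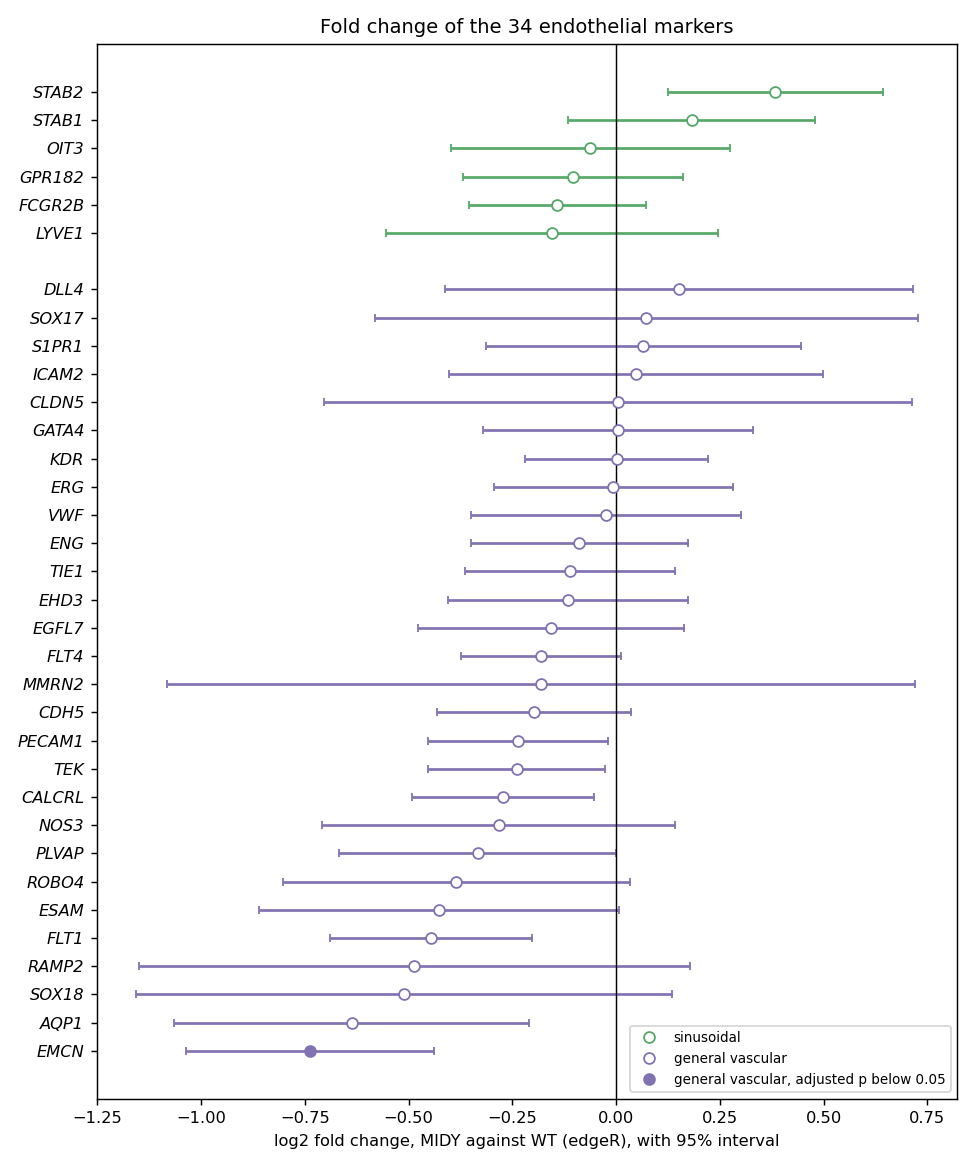
Fitted log2 fold change of each of the 34 markers, MIDY against WT, on the horizontal axis, with the 95% interval as a bar; sinusoidal markers stand at the top in green and general vascular markers below in purple. EMCN, at the bottom with the filled point, is the 1 marker past the adjusted threshold, and STAB2 lies farthest to the right at 0.38.

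Of the 6 sinusoidal markers 0 were called by edgeR, DESeq2 or limma voom, and 1, STAB2, had an unadjusted edgeR p below 0.05. STAB2, a large scavenger receptor that takes up hyaluronan and other waste, stood at 287, 246, 296 and 217 CPM in MIDY replicates 1 to 4 and at 227, 172, 203, 193 and 206 CPM in WT replicates 1 to 5. MIDY replicate 4 lay below WT replicate 1, and the other 3 MIDY libraries lay above all WT libraries. The means were 261 ± 36.8 (SD, n = 4) and 200.4 ± 20.2 CPM (SD, n = 5), and the log2 fold change of 0.38 ± 0.12 (SE) did not pass the test (edgeR adjusted p = 0.144, unadjusted p = 0.00720). STAB2 lies on chromosome 5 from 80692459 to 80863221 on Sscrofa11.1.

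In the reference annotation 2 other gene models overlap the span of STAB2. LOC110260598 shares 4074 bases with it and was not tested. NT5DC3, a nucleotidase-domain gene of little known function, shares 23 bases, and it rose in MIDY liver (edgeR adjusted p = 0.0351, with a log2 fold change of 1.06 ± 0.21 SE). The NT5DC3 levels were 6.05, 7.70, 12.3 and 10.1 CPM in the MIDY libraries and 4.31, 4.10, 3.59, 4.16 and 5.59 CPM in the WT libraries, with no overlap between the groups. The sources used here do not give the strand setting of the counting, and sharing of reads between these genes was not tested.

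STAB1, the paralogous stabilin, is made by sinusoidal endothelium and by some macrophages. It measured 81.9, 81.7, 102 and 98.2 CPM in MIDY and 81.5, 58.7, 92.4, 76.7 and 91.4 CPM in WT. The groups overlapped, with WT replicate 2 lowest, and the log2 fold change was 0.18 ± 0.14 (SE; edgeR adjusted p = 0.554). The 95% interval of its fold change ran from 0.923 to 1.39.

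The other 4 sinusoidal markers had fitted values slightly below 0 and groups that overlapped. LYVE1, a hyaluronan receptor also found on lymphatic endothelium, read 31.6, 20.3, 19.1 and 19.5 CPM in MIDY and 24.6, 31.8, 27.9, 18.5 and 23.0 CPM in WT (log2 fold change -0.15 ± 0.18 SE). MIDY replicate 1 stood apart from the other MIDY libraries, and without it the log2 fold change was -0.36. FCGR2B, the inhibitory Fc receptor that sinusoidal endothelium uses to clear immune complexes, had the tightest WT values of all members: 37.1, 36.6, 37.5, 36.0 and 34.3 CPM, a coefficient of variation of 3.44%. In MIDY it was 28.1, 35.5, 35.7 and 32.5 CPM, so that 2 libraries lay within the WT range and 2 below it (-0.14 ± 0.10 log2, SE; edgeR adjusted p = 0.515).

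OIT3, a secreted zona pellucida-domain protein, gave 60.0, 67.6, 49.99 and 54.5 CPM in MIDY and 65.0, 54.96, 82.2, 48.2 and 52.5 CPM in WT. Its fold change, -0.06 ± 0.16 (log2 ± SE), is the smallest of the 6 and took the opposite sign without WT replicate 3 (0.07). GPR182, an atypical receptor that binds chemokines, was at 18.5, 24.9, 18.6 and 20.3 CPM in MIDY and at 20.7, 21.1, 24.7, 24.1 and 19.9 CPM in WT (-0.10 ± 0.12 log2, SE). The 95% interval of the fold change was 0.759 to 1.21 for OIT3 and 0.775 to 1.12 for GPR182. ZBTB39 shares 1023 of the 6187 bases of GPR182 and had a log2 fold change of 0.13 ± 0.15 (SE). Sharing of reads between GPR182 and ZBTB39 was not tested.

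**Figure D2:**
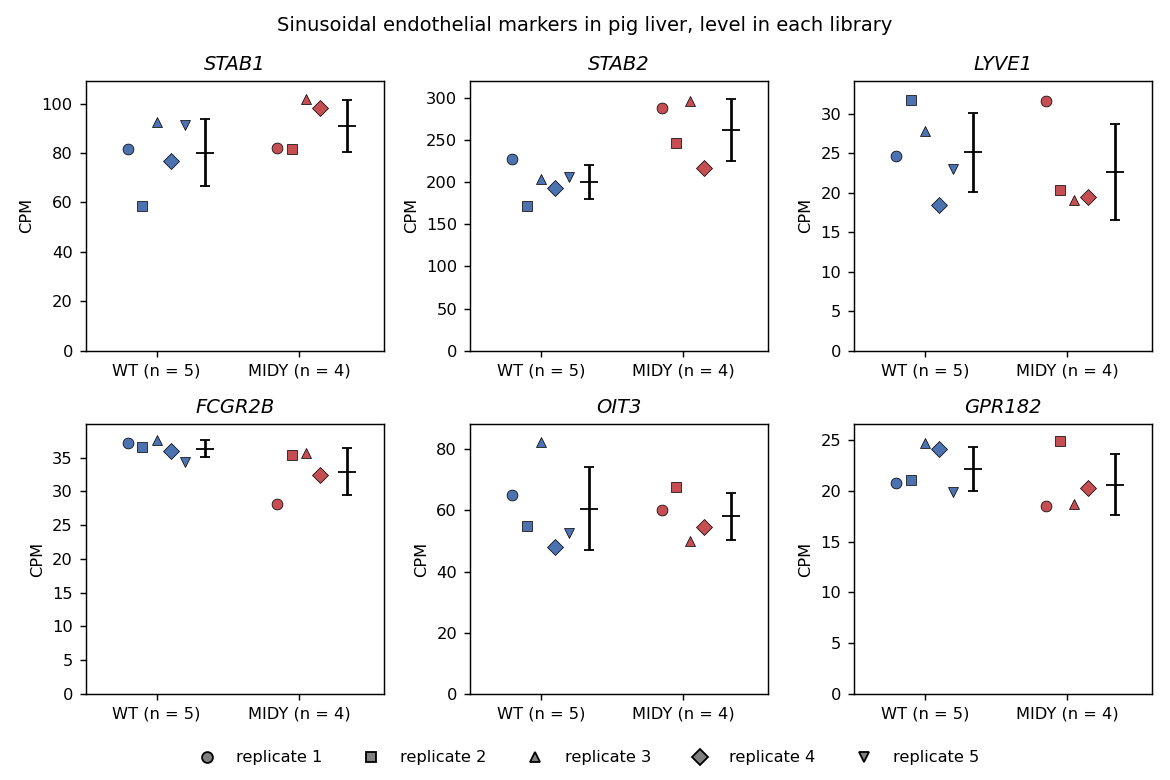
Level in CPM of the 6 sinusoidal markers, each panel 1 gene with its own axis from 0; points are libraries, shapes are replicate numbers within a group, and the bar is the mean with its SD. STAB2 has 3 MIDY libraries above every WT library, and the groups overlap in all 6 panels.

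The contrast between sinusoidal and general vascular markers was then taken within each library, as the mean log2 CPM of the 6 minus that of the 28. The 28 are not markers of continuous endothelium alone. They hold genes that also act in sinusoidal endothelium, such as the VEGF receptors, TEK and GATA4. The contrast therefore does not set sinusoidal against continuous endothelium. The difference was 1.83, 1.74, 1.81 and 1.64 in MIDY replicates 1 to 4 and 1.73, 1.58, 1.54, 1.42 and 1.45 in WT replicates 1 to 5. Its size reflects which genes are in the lists, and only its shift between libraries is of use: it averaged 1.76 ± 0.09 (SD, n = 4) in MIDY and 1.54 ± 0.12 (SD, n = 5) in WT, 0.21 higher in MIDY. MIDY replicate 4 lay below WT replicate 1, and the others were separate. Leaving out 1 library at a time gave 0.18 to 0.26. No test was made of this value because it is a score over chosen genes.

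On its own, the sinusoidal mean was 5.71 ± 0.05 log2 CPM in MIDY and 5.69 ± 0.12 in WT, and the vascular mean 3.95 ± 0.06 and 4.15 ± 0.13 (SD, n = 4 and 5). Set against the vascular mean of its own library, STAB2 was higher by 0.57 log2 in MIDY and STAB1 by 0.39, while LYVE1, FCGR2B, OIT3 and GPR182 differed by 0.03, 0.05, 0.15 and 0.08. All 6 genes overlapped between the groups on this scale. The median log2 fold change was -0.08 for the sinusoidal and -0.18 for the vascular markers, and 0 of 6 and 1 of 28 were called.

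**Figure D3:**
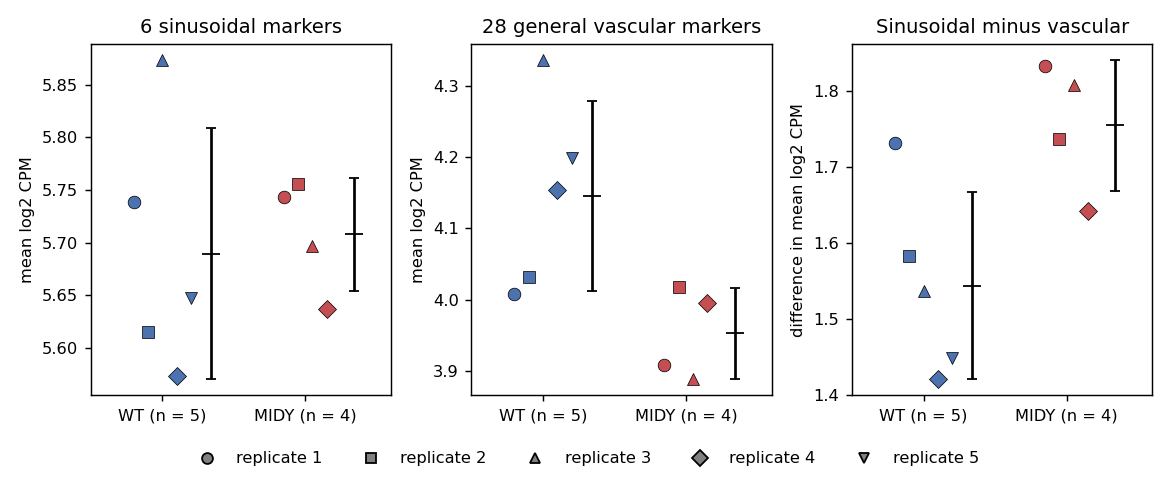
Mean log2 CPM of the 6 sinusoidal markers (left), of the 28 general vascular markers (middle) and their difference (right) in each library, with group mean and SD; the axes do not start at 0. The difference is 1.64 to 1.83 in MIDY and 1.42 to 1.73 in WT, and the vascular mean of 3 MIDY libraries lies under every WT library.

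Among junction and surface proteins, EMCN fell. It encodes endomucin, a mucin-like sialoprotein on capillary and venous endothelium, and lies on chromosome 8 from 120174091 to 120227971 with no overlapping gene model. EMCN was at 4.62, 4.93, 4.90 and 4.67 CPM in MIDY and at 6.95, 7.49, 7.80, 8.83 and 8.75 CPM in WT, from raw counts of 71 to 93 and 100 to 155. The highest MIDY library was well under the lowest WT library, and the 4 MIDY values spanned a narrow range. Mean levels were 4.78 ± 0.16 CPM in MIDY and 7.97 ± 0.81 CPM in WT (SD, n = 4 and 5), a log2 fold change of -0.74 ± 0.14 (SE; edgeR adjusted p = 0.0273), and by p EMCN ranked 73 of 14100 genes. The fold change was 0.600 with a 95% interval of 0.488 to 0.738. The call was lost (adjusted p 0.0510 to 0.0737) without MIDY replicate 1, 2 or 3, without WT replicate 2, 4 or 5, and without WT replicates 1 and 2 together, with the log2 fold change then between -0.83 and -0.70.

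PECAM1, the platelet and endothelial adhesion molecule (chromosome 12, 14667643 to 14723296), also had groups without overlap. It measured 48.7, 54.4, 53.4 and 51.4 CPM in MIDY and 59.1, 54.9, 70.5, 57.2 and 64.4 CPM in WT. LOC110255989, a model of a long noncoding RNA, shares 4052 bases with PECAM1 and was not tested. The gap was small, with MIDY replicate 2 just under WT replicate 2, and the log2 fold change of -0.24 ± 0.10 (SE) did not pass the test (edgeR adjusted p = 0.271). Groups without overlap and MIDY below were found for 3 of the 34 members, EMCN, PECAM1 and FLT1 (8.82%), and for 2.63% of all genes (6.35% in either direction).

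None of the other 7 junction and surface genes passed the test. CDH5, the cadherin of endothelial junctions, had even MIDY values, 107, 109, 107 and 105 CPM, beside 122, 127, 148, 111 and 106 CPM in WT (-0.20 ± 0.11 log2, SE). ESAM, an adhesion molecule of tight junctions, averaged 7.64 ± 1.53 CPM in MIDY and 10.3 ± 2.52 in WT, and PLVAP, which forms the diaphragms of fenestrae and caveolae, 63.7 ± 12.1 and 80.2 ± 14.7 CPM (edgeR adjusted p = 0.316 and 0.311; SD, n = 4 and 5). VWF, the clotting factor stored by continuous endothelium and a usual sign of capillarization, stood at 12.6 ± 1.79 CPM in MIDY and 12.7 ± 2.16 in WT (SD, n = 4 and 5). Its fold change was 0.984 with a 95% interval of 0.785 to 1.23. The tight-junction claudin CLDN5 (0.00490 ± 0.33) and the adhesion molecule ICAM2 (0.05 ± 0.21, log2 ± SE) were close to 0 at low levels of 1.44 to 5.48 CPM per library.

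MMRN2, a matrix protein that binds to endothelial surfaces, varied most among the members in WT liver. It was at 51.2, 48.4, 168, 90.7 and 143 CPM in WT, a coefficient of variation of 53.8%, and at 95.65, 94.5, 57.6 and 106 CPM in MIDY. The WT values thus ran wider than the whole MIDY range on both sides, and the fold change had a 95% interval of 0.472 to 1.65. Without WT replicate 3 the log2 fold change went from -0.18 to 0.09. BMPR1A overlaps MMRN2 by 206 bases and had a log2 fold change of 0.21 ± 0.15 (SE).

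Among the 6 receptors for growth factors 0 were called by edgeR, 2 had an unadjusted p below 0.05 (FLT1 and TEK), and DESeq2 called 1. FLT1, the VEGF receptor of high affinity that also exists as a soluble decoy (chromosome 11, 5620698 to 5797095), was at 39.7, 32.8, 36.8 and 37.1 CPM in MIDY and at 45.2, 44.0, 56.6, 47.0 and 56.4 CPM in WT. All MIDY libraries lay under all WT libraries. The log2 fold change was -0.45 ± 0.11 (SE), at an edgeR adjusted p = 0.0796 that misses the threshold, and DESeq2 called it (adjusted p = 0.0126). Over all alternatives its adjusted p ran from 0.0126 to 0.217. Counts per gene do not separate the soluble from the membrane form.

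KDR, the main signalling receptor for VEGF, read 188, 192, 198 and 188 CPM in MIDY and 208, 177, 219, 181 and 171 CPM in WT. Its fold change was 1.001 with a 95% interval of 0.859 to 1.17, so a change of 1.5-fold in either direction lay outside the interval. FLT4, the receptor for VEGFC, was at 32.7 ± 1.89 CPM in MIDY and 37.1 ± 1.49 in WT (SD, n = 4 and 5; -0.18 ± 0.09 log2, SE). Whether FLT1 and KDR differ from each other in their response was not tested.

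TEK, the receptor for angiopoietins, measured 115, 114, 131 and 134 CPM in MIDY and 132, 148, 162, 144 and 144 CPM in WT. Only MIDY replicate 4 reached into the WT range, above WT replicate 1, and the log2 fold change was -0.24 ± 0.10 (SE; edgeR adjusted p = 0.258). TIE1, its orphan partner, gave -0.11 ± 0.12, and ENG, the endoglin co-receptor for BMP9 and TGF-beta, -0.09 ± 0.12 (log2 ± SE).

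**Figure D4:**
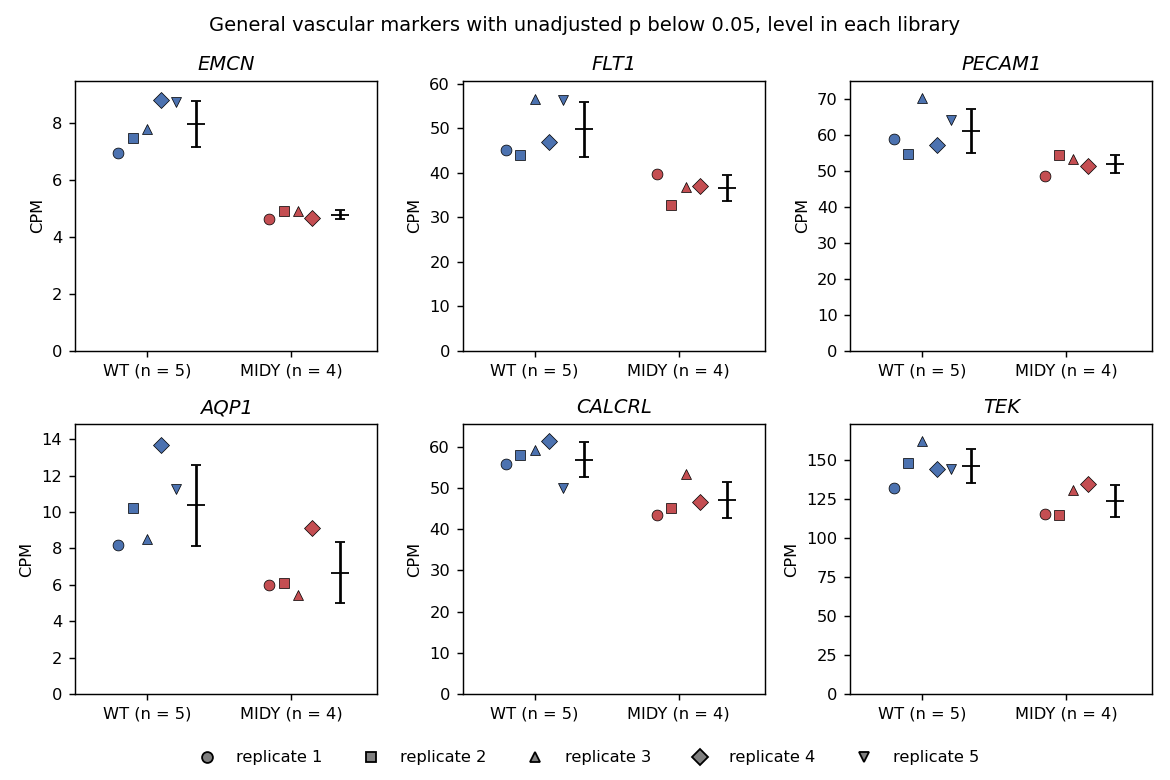
Level in CPM of the 6 general vascular markers with an unadjusted p below 0.05, 1 gene per panel with its own axis from 0; points are libraries, shapes are replicate numbers within a group, and the bar is the mean with its SD. EMCN, FLT1 and PECAM1 show no overlap between the groups, and AQP1, CALCRL and TEK overlap.

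Of the 6 genes for guidance, peptide, lipid and Notch signals, CALCRL had the lowest p. CALCRL is the receptor that pairs with RAMP proteins to bind adrenomedullin. It was at 43.4, 45.2, 53.3 and 46.5 CPM in MIDY and at 55.8, 58.0, 59.2, 61.4 and 49.99 CPM in WT, with WT replicate 5 under MIDY replicate 3 (edgeR adjusted p = 0.209, log2 fold change -0.27 ± 0.10 SE). Its partner RAMP2 had 5.12, 5.76, 3.48 and 3.72 CPM in MIDY and 4.87, 4.60, 12.0, 5.61 and 4.58 CPM in WT. RAMP2 in WT replicate 3 was far above every other library, and without that library the log2 fold change went from -0.49 to -0.13.

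ROBO4, an endothelial guidance receptor that steadies the barrier, averaged 3.35 ± 0.56 CPM in MIDY and 4.39 ± 0.75 in WT (SD, n = 4 and 5; edgeR adjusted p = 0.351). The secreted factor EGFL7 (-0.16 ± 0.15), the sphingosine-1-phosphate receptor S1PR1 (0.07 ± 0.17) and the Notch ligand DLL4 (0.15 ± 0.26, log2 ± SE) did not pass the test either. EGFL7 is not on a placed chromosome in the reference. MIR126, the microRNA in its intron, was not analysed here, and recovery of small RNA by these libraries was not tested.

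AQP1, a water channel of endothelium and bile ducts, was at 5.99, 6.11, 5.43 and 9.12 CPM in MIDY and at 8.20, 10.2, 8.49, 13.7 and 11.2 CPM in WT. MIDY replicate 4 lay inside the WT range and the other 3 below it (edgeR adjusted p = 0.142, log2 fold change -0.64 ± 0.20 SE). Because bile ducts also make AQP1, the biliary marker list is given beside it: its summed level was 25.4 to 37.2 CPM in MIDY and 29.8 to 76.5 in WT. Of its 6 tested genes 0 were called by edgeR, DESeq2 or limma voom. At an unadjusted edgeR p below 0.05, 1 was lower (SPP1) and 1 higher (EPCAM, with no overlap between the groups). The part of bile ducts in the AQP1 value was not tested. NOS3, the endothelial nitric oxide synthase, averaged 8.34 ± 1.41 CPM in MIDY and 10.2 ± 2.56 in WT, and EHD3, a membrane-trafficking ATPase, 23.7 ± 2.38 and 25.6 ± 4.26 CPM (edgeR adjusted p = 0.514 and 0.724; SD, n = 4 and 5).

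Of the 4 transcription factors of the endothelial programme 0 were called by edgeR, DESeq2 or limma voom, and 0 had an unadjusted edgeR p below 0.05. ERG, an ETS factor, measured 16.2, 20.8, 17.9 and 15.8 CPM in MIDY and 19.3, 17.1, 21.2, 14.6 and 16.7 CPM in WT. GATA4, which specifies the sinusoidal type in liver and is also made by stellate cells, measured 16.3, 21.1, 19.9 and 21.0 CPM in MIDY and 24.3, 16.0, 22.7, 15.8 and 18.9 CPM in WT. Fold changes were 0.995 (95% interval 0.815 to 1.21) for ERG and 1.003 (0.801 to 1.26) for GATA4. SOX17, a factor of arterial endothelium, and SOX18, of vascular and lymphatic endothelium, rested on 17 to 54 counts per library and their intervals were wide, 0.668 to 1.66 and 0.449 to 1.10. TCEA2 overlaps the whole span of SOX18 (1891 bases), so the SOX18 count is uncertain.

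Libraries differed in how often they were the extreme. WT replicate 3 was the highest of the 9 for 16 of the 34 members and MIDY replicate 1 the lowest for 9. These 2 libraries had the lowest TMM factors, 0.900 and 0.948, and with counts scaled by the total alone WT replicate 3 was highest for 7 members and MIDY replicate 1 lowest for 12. Without WT replicate 3 the vascular median was -0.13 and the sinusoidal median 0.00470, and 24 of the 34 fold changes were below 0. Over all fits that left out 1 library, 24 to 28 were below 0.

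Other endothelial genes were counted in the same fit. Their lists were named by function, but they were chosen with earlier results of these data known. Genes of a list share cells and libraries, so they are not independent observations. Among the 14100 genes tested, 50.7% had a fitted value below 0. At an unadjusted edgeR p below 0.05, 1128 of them were lower in MIDY. Counts of the lists here and below can be read beside these values, but a departure from them was not tested. Of 30 further pan-endothelial genes, 27 had a fitted value below 0 (median log2 fold change -0.26), 6 of them with an unadjusted p below 0.05, and 0 were called by edgeR or limma voom and 1, NOSTRIN, by DESeq2. The lowest p in that list belonged to NOSTRIN, which traffics NOS3 (21.1 ± 5.51 CPM in WT, 13.5 ± 2.08 in MIDY), CAV1, the coat protein of caveolae (9.18 ± 2.07 and 5.92 ± 1.09), and CAVIN2, a caveolar adaptor (95.2 ± 14.6 and 75.9 ± 6.05; SD, n = 5 and 4). Their edgeR adjusted p was 0.126, 0.140 and 0.212. The part of other liver cells in the values of NOSTRIN, CAV1 and CAVIN2 was not tested. Of 14 further sinusoidal genes, 8 were below 0 (median -0.07), 2 of them with an unadjusted p below 0.05. That list holds genes such as MRC1, CD14 and CD4, and which liver cells made them was not tested. Its median is thus not a reading of sinusoidal endothelium alone. In the list for central vein and pericentral sinusoid endothelium, 4 of 9 were below 0 (median 0.04) and 0 had an unadjusted p below 0.05. A list labelled activated endothelium, which also holds the flow-responsive factors KLF2 and KLF4, had 9 of 12 below 0 (median -0.22). In it 2 genes had an unadjusted edgeR p below 0.05. These were CCL2 (-1.27 ± 0.39), at mean levels of 0.305 CPM in MIDY and 0.725 in WT, and KLF2 (-0.48 ± 0.22, log2 ± SE). Because the list mixes genes of different roles, its count is not a measure of activation. In these 3 lists edgeR, DESeq2 and limma voom called 0 genes.

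Signals that act on these receptors were measured too. Of 13 ligands 10 were below 0 (median -0.25), 4 of them with an unadjusted p below 0.05, and 0 were called by edgeR or limma voom and 1, ANGPT4, by DESeq2. VEGFA, the ligand of FLT1 and KDR, was at 50.1 ± 10.8 CPM in WT and 51.8 ± 14.3 in MIDY (SD, n = 5 and 4; 0.05 ± 0.20 log2, SE). The lowest p among ligands belonged to ANGPT4 (-0.87 ± 0.26), an angiopoietin, and to SLIT3 (-1.05 ± 0.35) and SLIT2 (-0.46 ± 0.17, log2 ± SE), which bind ROBO receptors. Of 18 receptor partners and inhibitors 11 were below 0 (median -0.10), 2 of them with an unadjusted edgeR p below 0.05, RAMP1 and NRP1. RAMP1 had a log2 fold change of -1.08 ± 0.41 (SE), at mean levels of 0.736 CPM in MIDY and 1.59 in WT. RAMP3 went the other way (0.13 ± 0.32, log2 ± SE). In this list 1 gene was called, NRP1, the co-receptor of VEGF receptors. NRP1 fell to 60.2 ± 2.31 CPM from 84.4 ± 7.33 CPM in WT (edgeR adjusted p = 0.0310, SD, n = 4 and 5). NRP1 is made by stellate and immune cells as well as endothelium. The groups did not overlap for NRP1, at 58.1 to 63.4 CPM in MIDY and 75.0 to 95.03 in WT.

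Markers of lymphocytes, stellate cells, macrophages, bile ducts and blood cells also had medians below 0. Of 7 tested lymphocyte markers all were below 0 (median log2 fold change -0.81) and 1, CD2, was called by edgeR and DESeq2 but not by limma voom, and 4 had an unadjusted p below 0.05. The summed level of this list was 23.1 to 31.6 CPM in MIDY and 34.96 to 74.5 in WT. Of 13 stellate cell and fibroblast markers 10 were below 0 (median -0.40), 6 of them with an unadjusted p below 0.05. The collagen gene COL1A2 was called by edgeR and limma voom, and DESeq2 called 3 lower (ACTA2, COL1A1 and COL1A2), with sums of 496 to 595 and 566 to 818 CPM. Of 12 Kupffer cell and macrophage markers 10 were below 0 (median -0.26). At an unadjusted edgeR p below 0.05, 3 were lower (C1QC, CD163 and C1QA) and 1 higher (MARCO). Of this list 0 were called by edgeR and 1 by DESeq2 (MARCO, higher), with sums of 855 to 1128 and 939 to 1352 CPM. Of the 6 biliary markers given beside AQP1, 5 were below 0 (median -0.31). Hepatocyte markers had a median of 0.05 and lymphatic markers 0.03, with 0 genes of either list called by edgeR, DESeq2 or limma voom and 0 at an unadjusted p below 0.05. In the lymphatic list the highest levels were PROX1 (425 CPM in WT) and RELN (175), and RELN also stands in the stellate list. CCL21 went the other way (-0.60 ± 0.33, log2 ± SE, at 3.31 CPM in WT), and PDPN had too few counts to be tested. The list median is thus not a reading of lymphatic endothelium alone. Of 3 tested erythroid and platelet markers 2 were below 0 (median -1.05), and 0 were called by edgeR, DESeq2 or limma voom or had an unadjusted p below 0.05. Their sum, mostly HBB, was 166 to 539 CPM in MIDY and 74.3 to 1492 in WT. The part of these cells in the endothelial values was not tested.

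**Figure D5:**
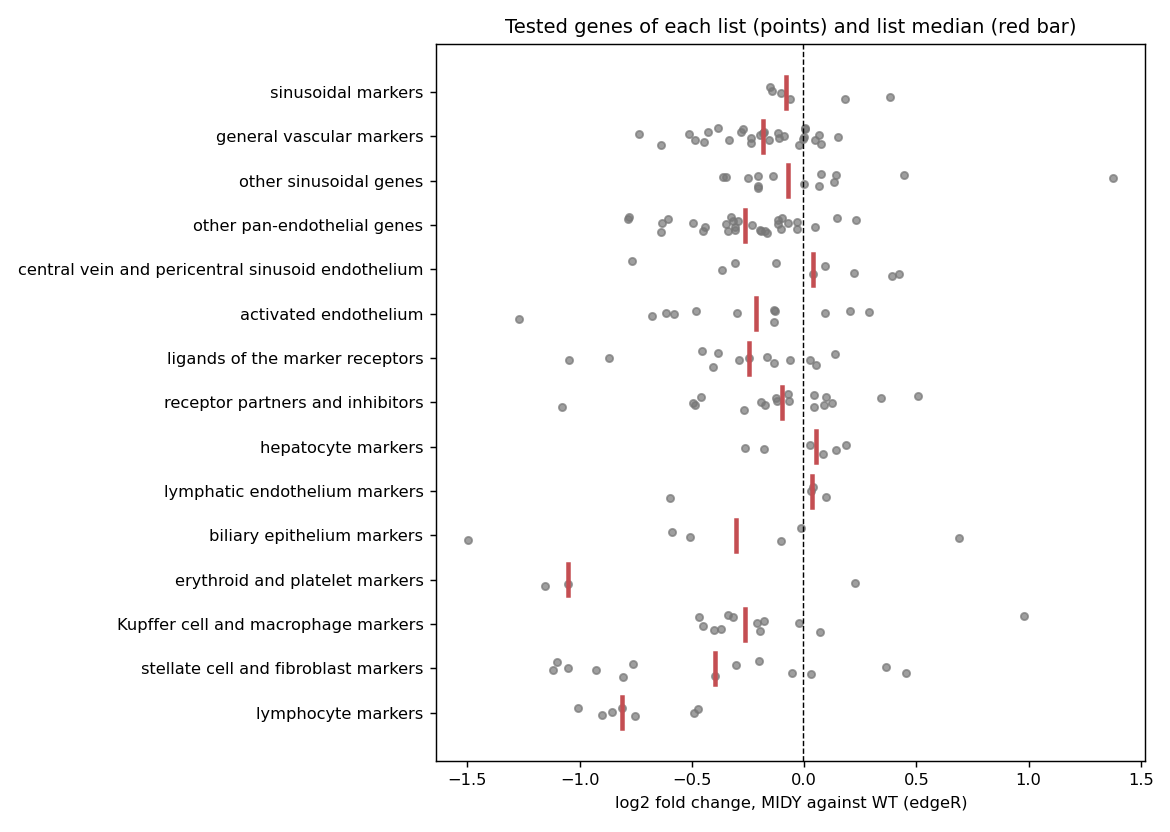
Fitted log2 fold change, MIDY against WT, of every tested gene (points, spread vertically for sight only) in 15 lists, with the list median as a red bar and the median of all genes as a dashed line. Medians are -0.08 for sinusoidal and -0.18 for general vascular markers, and the lowest of the 15 are those of the erythroid and platelet markers at -1.05, from 3 genes, and of the lymphocyte markers at -0.81.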

How the data were processed

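Liver RNA of 9 pigs, 4 MIDY and 5 WT, was grouped by the genotype label. The deposited table gives raw counts for each gene symbol, with 1 column per library. The submitters' processing notes name STAR, HTSeq, DESeq2 and the build Sscrofa11.1, and the sources used here do not give versions, annotation release or strand setting. Without the strand, reads of overlapping genes cannot be told apart. Overlaps and positions came from the RefSeq gene table of Sscrofa11.1, which holds all 34 symbols, and 9 members overlap another model.

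Counts were fitted over the whole table with edgeR 4.0.16 in R 4.3.3 (filterByExpr, TMM, robust quasi-likelihood), which tested 14100 genes holding 99.9% of the counts. Two-sided p-values were adjusted by Benjamini-Hochberg over all genes tested. The standard error is taken from the log2 fold change and its F statistic, and 95% intervals use the fit's degrees of freedom. Log2 CPM has a prior count of 2. The lowest count of a member in any library was 17.

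The members and lists were chosen with earlier results of these data known. Named with every library's value were the sinusoidal members and those with an unadjusted p below 0.05 or no overlap, with others added after their values were seen; from other lists, called genes and up to 3 of the lowest p. CALCA, CLEC4M, FCN3, HBA and PF4 were not analysed here. Alternatives were RLE and total-count scaling, the 10 most abundant genes removed, no or a stricter low-count filter (1 CPM in 4 libraries), DESeq2 1.42.0, limma 3.58.1 voom with sample weights, each library left out, and WT replicates 1 and 2 left out together, which had stood apart in earlier work on these data. Counts of members below 0 under these alternatives were added after seeing the data. No labels name a batch.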

Additional observations from a re-analysis of the deposited data

Results flagged for a closer look

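In 3 of 74 sets of libraries, 1 library stood farther from its group than Dixon's 95% limit allows, and chance alone gives about 1 such set in 20. RAMP2 in WT replicate 3 was at 12.0 CPM, with the other WT libraries at 4.58 to 5.61. LYVE1 in MIDY replicate 1 was at 31.6 CPM, with the other MIDY libraries at 19.1 to 20.3. EGFL7 in MIDY replicate 4 was at 12.1 CPM, with the others at 8.96 to 9.42.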

How the results depend on the processing

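No paired analysis was possible because the labels give each pig its own number and share none between the groups. The 165 genes called over the whole table became 639 with DESeq2 (355 higher and 284 lower), 66 without WT replicates 1 and 2 together, and 38 to 259 with 1 library left out: 259 when WT replicate 1 was omitted, 38 and 53 for MIDY replicates 2 and 3, and 59, 81, 80 and 60 for WT replicates 2, 3, 4 and 5. The 1 endothelial member called, which is also the 1 general vascular member called, became 2 with DESeq2 (EMCN and FLT1), 0 without WT replicates 1 and 2 together, and 0 to 1 with 1 library left out. EMCN kept its call in 3 of 9 fits with a library omitted (log2 fold change -0.79 to -0.70) and in 10 of 17 alternatives, with -0.83 and an adjusted p of 0.0511 without WT replicates 1 and 2 together; a fit without a library tests fewer samples. FLT1 passed the threshold with DESeq2 (-0.45). No sinusoidal member was called under any of the 17 alternatives. The sinusoidal median ran from -0.12 to 0.00470, the vascular median from -0.23 to -0.13, and their difference per library from 0.18 to 0.29 over 15 alternatives.

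Members with fitted values near 0 took the other sign in places, and the cause was not tested. KDR did so with RLE factors (-0.000960), the 10 most abundant genes removed (-0.00463), the stricter filter (-0.000245) and DESeq2 (-0.000672); ERG with total counts (0.0179), no low-count filter (0.00210), limma voom (0.0691) and without WT replicates 1 and 2 together (0.00979). CLDN5 and GATA4 did so with the 10 most abundant genes removed (-0.000579 and -0.00128), CLDN5, ICAM2 and OIT3 with limma voom (-0.12, -0.0914 and 0.00806), and CLDN5 and ICAM2 without WT replicates 1 and 2 together (-0.0926 and -0.0254). With 1 library left out, log2 fold changes ran from -0.0362 to 0.0538 for KDR, -0.0907 to 0.0627 for ERG, -0.0641 to 0.0882 for GATA4, -0.40 to 0.22 for CLDN5, -0.0682 to 0.19 for ICAM2, -0.14 to 0.0716 for OIT3, -0.11 to 0.0741 for VWF, -0.0219 to 0.20 for S1PR1, -0.0542 to 0.22 for SOX17, -0.0758 to 0.32 for DLL4 and -0.36 to 0.0856 for MMRN2. The lowest counts behind any member were those of SOX17 and SOX18, 17 to 54 per library; how much of a member's spread comes from depth was not tested.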

Other observations

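Among genes outside the members, FCN2 had the highest fitted fold change of the further sinusoidal genes. FCN2 encodes a ficolin, a soluble lectin that activates complement, and in several species ficolins are made in liver. It was at 153, 94.1, 126 and 132 CPM in MIDY replicates 1 to 4 and at 139, 29.2, 25.5, 33.5 and 16.6 CPM in WT replicates 1 to 5, so WT replicate 1 lay among the MIDY libraries and the other 4 WT libraries well below them (edgeR adjusted p = 0.321). MARCO, a scavenger receptor of macrophages, had 18.2, 19.1, 23.9 and 18.0 CPM in MIDY and 17.1, 5.55, 8.63, 6.49 and 12.7 CPM in WT, with no overlap between the groups and WT replicate 1 again the highest of its group (edgeR adjusted p = 0.138). Both genes were picked after their values were seen, and neither was called by edgeR or limma voom. DESeq2 called MARCO higher and did not call FCN2. Of the 12 Kupffer cell and macrophage markers, 10 were below 0, unlike MARCO. CD163 among them had groups without overlap in the other direction. It was at 73.4 ± 1.87 CPM in MIDY and 85.0 ± 3.58 in WT (SD, n = 4 and 5), with an edgeR adjusted p of 0.239.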
